A study of Mus musculus with 12 samples.

Results

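In the LN (lymph node) T cells of B6 and FlipFlop mice, 10 genes were followed that had been chosen by name, because they were seen in these same values to be high in the B6 CD8 and the FlipFlop CD4 T cells and close to silent in the other cells, and because none is annotated as an immune gene. They are *Slc6a19*, *Kcnc1*, *Adgrg5*, *Adgrb2*, *Bace1*, *Haao*, *Lcn4*, *Rcn3*, *Plekha6* and *Bend4*, 10 of the 12809 genes with values, and all 10 passed the limit on low values that left 11595 genes for testing. Total RNA was sequenced from 12 libraries of sorted CD4 and CD8 T cells, 3 in each of 4 groups. B6 CD4 and B6 CD8 T cells came from C57BL/6 females aged 10 weeks. FlipFlop CD4 and FlipFlop CD8 T cells came from females aged 14 weeks whose *Cd8a* loci encode CD4 protein (Cd8-CD4, taken from 4in8 mice, made in 129R1 embryonic stem cells) and whose *Cd4* loci encode CD8αβ.1 protein (Cd4-CD8, taken from 8in4 mice, made in B6 embryonic stem cells). All FlipFlop groups carry both altered loci, so strain, age and the remaining 129 sequence cannot be told apart. The labels do not say whether replicates came from separate mice, and p-values therefore measure the spread between these libraries, which may be technical.

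In T cells the coreceptor CD4 or CD8 is normally tied to a lineage. ThPOK, the product of *Zbtb7b*, directs the helper lineage, and Runx3 directs the cytotoxic lineage, which kills target cells with perforin and granzymes. By the lineage markers measured here, the B6 CD4 and the FlipFlop CD8 groups are called the helper lineage and the B6 CD8 and the FlipFlop CD4 groups the cytotoxic lineage. The 10 genes are best known from other tissues and belong to 9 gene families or pathways: an amino acid transporter of gut and kidney (*Slc6a19*), a neuronal potassium channel (*Kcnc1*), adhesion G protein-coupled receptors (*Adgrg5*, *Adgrb2*), the secretase that begins the cleavage of amyloid precursor protein (*Bace1*), a dioxygenase of tryptophan breakdown (*Haao*), a lipocalin (*Lcn4*), a calcium-binding protein of the endoplasmic reticulum (*Rcn3*), a pleckstrin homology protein (*Plekha6*) and a BEN domain protein (*Bend4*).

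All 10 are annotated as protein-coding genes (GENCODE M21, GRCm38), and they lie on 9 chromosomes, of which only *Rcn3* and *Kcnc1* share one. *Slc6a19* (ENSMUSG00000021565.16) spans chr13:73679745-73704865 on the minus strand and *Kcnc1* (ENSMUSG00000058975.7) spans chr7:46396497-46438704 on the plus strand. *Adgrg5* (ENSMUSG00000061577.12) spans chr8:94923694-94943280 on the plus strand and *Adgrb2* (ENSMUSG00000028782.14) spans chr4:129984870-130022633 on the plus strand. *Bace1* (ENSMUSG00000032086.12) spans chr9:45838580-45864399 on the plus strand and *Haao* (ENSMUSG00000000673.9) spans chr17:83831156-83847963 on the minus strand. *Lcn4* (ENSMUSG00000026919.1) spans chr2:26667674-26671282 on the minus strand and *Rcn3* (ENSMUSG00000019539.11) spans chr7:45082913-45092221 on the minus strand. *Plekha6* (ENSMUSG00000041757.16) spans chr1:133164210-133303435 on the plus strand and *Bend4* (ENSMUSG00000092060.4) spans chr5:67392147-67428310 on the minus strand. The 250 bases before the RefSeq start (GRCm38.p6) are shown for the 3 genes in which one of the motifs searched was found, and for *Rcn3*, whose start lies next to the end of the gene *Fcgrt*. All are printed 5′ to 3′ on the strand of the gene, and capitals mark the motif matches. They come from chr8:94923444-94923693 (plus strand, *Adgrg5*), chr7:46396218-46396467 (plus strand, *Kcnc1*), chr2:26671283-26671532 (minus strand, *Lcn4*) and chr7:45092214-45092463 (minus strand, *Rcn3*).
Adgrg5: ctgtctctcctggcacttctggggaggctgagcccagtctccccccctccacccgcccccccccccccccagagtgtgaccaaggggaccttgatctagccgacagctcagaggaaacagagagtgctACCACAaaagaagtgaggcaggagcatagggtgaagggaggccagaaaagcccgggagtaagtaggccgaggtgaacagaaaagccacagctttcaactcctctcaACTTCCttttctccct
Kcnc1: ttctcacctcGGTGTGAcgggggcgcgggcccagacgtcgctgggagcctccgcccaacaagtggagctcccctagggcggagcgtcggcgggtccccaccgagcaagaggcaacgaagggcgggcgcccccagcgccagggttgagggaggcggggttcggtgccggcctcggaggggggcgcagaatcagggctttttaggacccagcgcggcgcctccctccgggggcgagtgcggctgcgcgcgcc
Lcn4: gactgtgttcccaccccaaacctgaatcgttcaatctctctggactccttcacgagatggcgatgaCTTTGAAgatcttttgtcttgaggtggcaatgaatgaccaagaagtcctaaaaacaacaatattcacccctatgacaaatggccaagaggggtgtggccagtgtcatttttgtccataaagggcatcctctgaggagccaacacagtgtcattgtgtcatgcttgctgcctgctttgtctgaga
Rcn3: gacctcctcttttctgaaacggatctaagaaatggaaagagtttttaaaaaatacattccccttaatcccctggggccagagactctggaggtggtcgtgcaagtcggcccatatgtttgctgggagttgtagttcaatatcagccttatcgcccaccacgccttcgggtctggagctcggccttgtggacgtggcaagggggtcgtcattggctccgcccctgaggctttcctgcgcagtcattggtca

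Motifs were searched as exact letters on both strands, in 32851 promoters of which 9 belong to the 10 genes. The RUNX motif TGTGGT occurred in 14.0% of all promoters and in 1 of the 9, that of *Adgrg5*, from 122 to 117 bases before the start on the opposite strand. The ETS motif GGAAGT occurred in 19.7% of all promoters and also only in *Adgrg5* among the 9, from 16 to 11 bases before the start, again on the opposite strand. The T-box motif GGTGTGA (3.33% of all promoters) was found in *Kcnc1* and the TCF/LEF motif CTTTGAA (4.46%) in *Lcn4*, 1 promoter each, and the TATA motif TATAAA (12.4%) in none of the 9. No motif was thus found in a pair of these windows. The windows of *Plekha6*, *Slc6a19*, *Haao* and *Bend4* sit at RefSeq starts that lie inside the GENCODE spans given above, away from the GENCODE start, so the sequence before the latter was not searched. They were also unlike in base composition, from 46.8% G and C with 3 CpG sites in *Lcn4* to 81.6% with 35 CpG sites in *Adgrb2*, with medians of 58.4% and 6 CpG sites against 52.4% and 6 CpG sites over all promoters. These matches are letters in a short window and are not sites of binding.

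The lineage of each group was checked with marker genes. *Zbtb7b* measured 196 and 168 CPM (read counts relative to library size, scaled between libraries) in the helper groups, B6 first, and 1.55 and 2.29 CPM in the cytotoxic groups. All 7 cytotoxic-lineage markers, *Runx3*, *Eomes*, *Prf1*, *Cd8b1*, *Nkg7*, *Ctsw* and *Crtam*, were higher in the cytotoxic lineage, and all 3 helper-lineage markers were lower (limma, adjusted p under 0.05). In FlipFlop T cells, reads of *Cd8b1* from its own locus and reads of the CD8αβ.1 sequence at the altered *Cd4* loci cannot be told apart here. The libraries held between 26600000 and 33100000 reads on the listed genes, and 3 reads, the limit that a count of 0 allows, correspond to 0.0857 to 0.120 CPM, for counting error only. Summed B cell, myeloid, red blood cell and dendritic cell markers came to at most 67.5 CPM per list in every library, and the natural killer cell genes *Ncr1*, *Klra4* and *Klra8* were not analysed here, with a sum of at most 13.9 CPM for the other 3 of their list. Between lineages *Cd79b* of the B cell list was higher in the cytotoxic groups, and *Itgam*, *Lyz2* and *Csf1r* of the myeloid list were lower. The natural killer cell marker *Klrb1c* (-1.45) and *Trgv2* (-0.83) of the γδ T cell list were also lower, as were all 4 regulatory T cell markers, and *Cd163l1* of the γδ T cell list was higher (1.26). In the FlipFlop CD4 against the B6 CD8 libraries *Itgax*, *Tyrobp* and *Hbb-bt* were lower (limma, adjusted p of 0.0348, 0.0489 and 0.0349), and their part in the results was not tested. In bulk RNA, fewer cells of a type and less RNA per cell cannot be told apart.

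*Slc6a19*, which encodes a sodium-dependent carrier of neutral amino acids, had the widest separation of lineages among the 10 genes. Its values were 0.0751, 0.226 and 0.245 CPM in the B6 CD4 libraries and 0.418, 0.893 and 0.171 CPM in the FlipFlop CD8 libraries, that is 2 to 27 reads per library. In the B6 CD8 libraries they were 55.2, 53.4 and 59.3 CPM, and in the FlipFlop CD4 libraries 25.3, 63.5 and 32.6 CPM. The B6 libraries differed by 307-fold and the FlipFlop libraries by 81.9-fold between lineages, the latter being 137-fold without FlipFlop CD8 replicate 2. The 3 FlipFlop CD4 libraries spread over a range that enclosed those of the B6 CD8 libraries. *Kcnc1*, a voltage-gated potassium channel subunit, measured 0.488, 0.936 and 0.398 CPM in the B6 CD4 libraries and 1.22, 0.364 and 1.03 CPM in the FlipFlop CD8 libraries. It reached 22.1, 22.1 and 16.9 CPM in the B6 CD8 libraries and 10.8, 14.0 and 17.9 CPM in the FlipFlop CD4 libraries. For both genes the groups of 1 lineage overlapped each other, and every cytotoxic library was above every helper library.

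The adhesion G protein-coupled receptors, surface receptors with long extracellular domains, had higher values in FlipFlop than in B6 libraries of the helper lineage, without overlap. *Adgrg5* measured 101, 111 and 111 CPM in the B6 CD8 libraries and 94.8, 80.3 and 89.3 CPM in the FlipFlop CD4 libraries. It measured 0.564, 0.613 and 1.13 CPM in the B6 CD4 libraries but 5.59, 2.81 and 2.57 CPM in the FlipFlop CD8 libraries, so that every FlipFlop CD8 library was above every B6 CD4 library. *Adgrb2*, named as an inhibitor of vessel growth in the brain, was the lowest of the 10 in the B6 CD8 libraries in CPM and per length, with 5.58, 5.48 and 4.57 CPM. It was higher in the FlipFlop CD4 libraries, with 9.65, 19.8 and 20.9 CPM, and it was not silent in the FlipFlop CD8 libraries, with 0.836, 1.85 and 1.09 CPM against 0.0751, 0.194 and 0.123 CPM in the B6 CD4 libraries. Its 4 groups did not overlap at all. The mean of *Adgrb2* in the FlipFlop CD8 libraries was 24.1% of that in the B6 CD8 libraries, whereas the other 9 genes stood between 0.883% (*Slc6a19*) and 4.84% (*Plekha6*). Set against the FlipFlop CD4 libraries of its own strain it was 7.49%, next to 6.13% for *Kcnc1*, 5.76% for *Rcn3* and 5.10% for *Plekha6*.

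The enzymes *Bace1* and *Haao* overlapped between strains in both lineages. *Bace1*, an aspartyl protease, measured 23.3, 22.5 and 19.3 CPM in the B6 CD8 libraries and 18.3, 20.7 and 17.7 CPM in the FlipFlop CD4 libraries. In the helper lineage it measured 0.338, 0.484 and 0.582 CPM in the B6 CD4 libraries and 0.321, 0.529 and 0.800 CPM in the FlipFlop CD8 libraries. *Haao*, which opens the ring of hydroxyanthranilate on the way to quinolinate and NAD, measured 13.3, 13.1 and 11.7 CPM against 11.9, 12.1 and 9.11 CPM in the cytotoxic groups, B6 CD8 first. Its helper values were 0.413, 0.291 and 0.245 CPM in the B6 CD4 libraries and 0.579, 0.232 and 0.171 CPM in the FlipFlop CD8 libraries. The lowest cytotoxic library was 22.1 times the highest helper library for *Bace1* and 15.7 times for *Haao*.

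*Lcn4* and *Rcn3*, a secreted carrier of small molecules and a protein of the secretory pathway, had lower values in FlipFlop than in B6 libraries in both lineages. *Lcn4* measured 19.1, 18.8 and 20.2 CPM in the B6 CD8 libraries and 11.0, 8.70 and 12.7 CPM in the FlipFlop CD4 libraries. It measured 0.864, 0.646 and 0.490 CPM in the B6 CD4 libraries and 0.482, 0.397 and 0.286 CPM in the FlipFlop CD8 libraries. The strains thus did not overlap in either lineage. *Rcn3* had the highest level of the 10 in the B6 CD4 libraries, in CPM and per length, with 4.77, 3.97 and 4.14 CPM in the B6 CD4 libraries and 3.25, 3.08 and 2.57 CPM in the FlipFlop CD8 libraries, 90 to 135 reads per library. It reached 70.9, 68.8 and 65.5 CPM in the B6 CD8 libraries and 54.0, 53.9 and 46.4 CPM in the FlipFlop CD4 libraries. For *Rcn3* too, every FlipFlop library was below every B6 library of its lineage.

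*Plekha6*, which has a pleckstrin homology domain of the kind that binds membrane phosphoinositides, measured 15.9, 14.0 and 11.9 CPM in the B6 CD8 libraries and 11.7, 16.5 and 11.5 CPM in the FlipFlop CD4 libraries. Its helper values were 1.13, 0.839 and 0.827 CPM in the B6 CD4 libraries and 0.707, 0.628 and 0.686 CPM in the FlipFlop CD8 libraries, so the strains overlapped in the cytotoxic but not in the helper lineage. *Bend4* carries a BEN domain, found in proteins that bind DNA and chromatin. Its cytotoxic groups were far apart, with 46.3, 46.6 and 49.6 CPM in the B6 CD8 libraries and 16.5, 18.2 and 16.8 CPM in the FlipFlop CD4 libraries. In the helper lineage it measured 0.601, 0.516 and 0.490 CPM in the B6 CD4 libraries and 0.771, 0.529 and 0.714 CPM in the FlipFlop CD8 libraries.

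**Figure D1:**
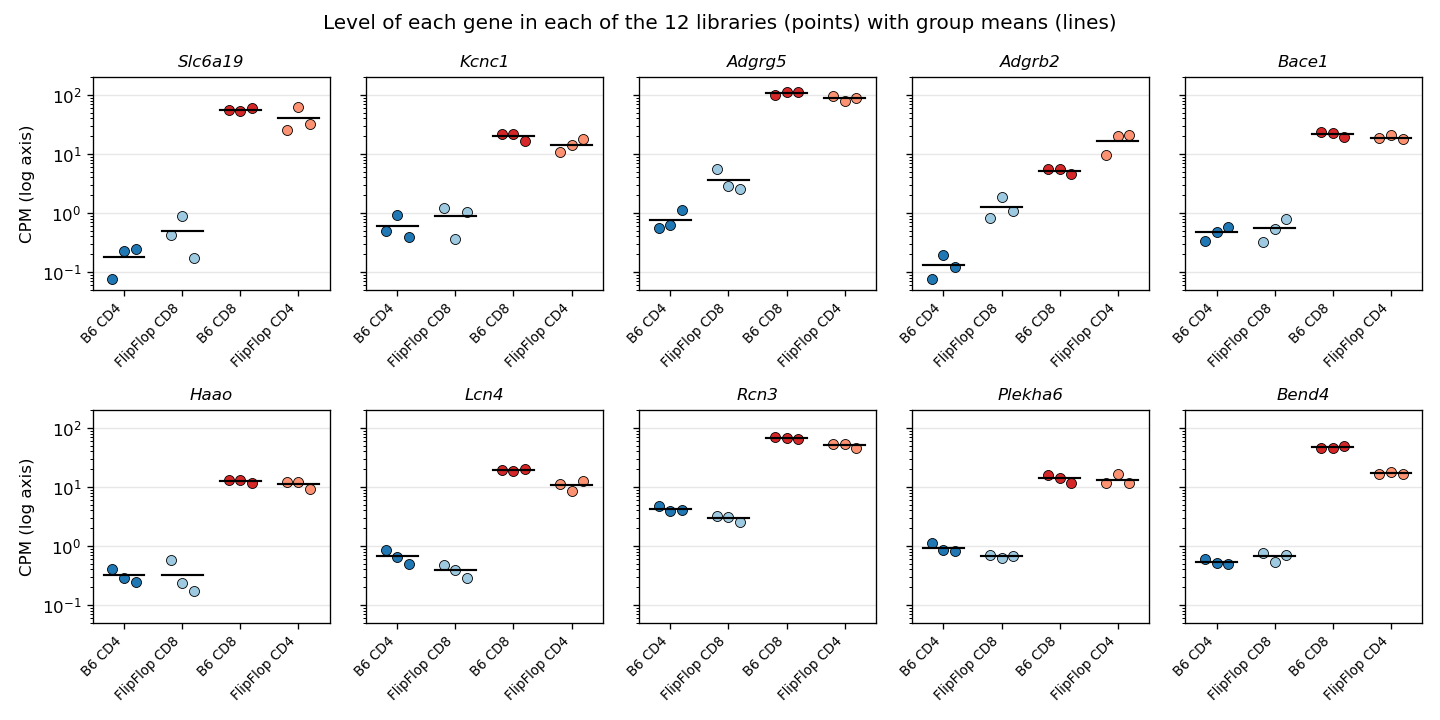
CPM (log axis) of each of the 10 genes in each library (points, 3 per group, replicates 1 to 3 from left to right) and the mean of each group (line), for helper-lineage groups (blue) and cytotoxic-lineage groups (red). Every cytotoxic library is above every helper library for all 10 genes, as for 7.0% of all tested genes. The 10 genes were chosen for this separation. Among them *Adgrb2* has the narrowest gap, with its lowest cytotoxic library 2.47 times its highest helper library.

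Added up, the 10 genes took 8.67 to 9.32 CPM in the B6 CD4 libraries, 10.1 to 14.2 CPM in the FlipFlop CD8 libraries, 370 to 376 CPM in the B6 CD8 libraries and 264 to 308 CPM in the FlipFlop CD4 libraries. Levels of different genes can be set side by side only per length, and per kb of merged exons the mean levels in the B6 CD8 libraries were led by *Rcn3* (39.8 CPM per kb), *Adgrg5* (34.3) and *Lcn4* (25.1). *Slc6a19* stood at 11.2 CPM per kb, *Bend4*, *Bace1*, *Haao*, *Kcnc1* and *Plekha6* between 4.80 and 1.11, and *Adgrb2* at 0.803. *Lcn4* has the shortest merged exons of the 10, 0.774 kb in all.

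The lineage difference is what the genes were chosen for, and it is given as a description only. On the log2(CPM + 0.5) scale used for all fits, on which low genes are understated, the mean of the cytotoxic groups exceeded that of the helper groups by 3.22 (*Adgrb2*) to 5.85 (*Slc6a19*), with a median of 3.90 against 0.03 for all tested genes. All 10 exceeded 5-fold at an unadjusted p under 0.0001, as did 0.336% of tested genes in this direction. The genes were chosen for this same difference, so their count beside that share is no evidence about them. Ordered by this difference over all tested genes, *Slc6a19* was the first and *Adgrg5* the second, and all 10 were within the first 19.

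The separation was also described by dividing the lowest of the 6 cytotoxic libraries by the highest of the 6 helper libraries. The genes were chosen for this same separation, so the number of members below is no evidence about them. The ratio was at least 5 in 18 tested genes, or 0.155% of them. Among these were 9 members, with ratios from 28.3 (*Slc6a19*), 22.1 (*Bace1*) and 21.4 (*Bend4*) down to 8.84 (*Kcnc1*), whereas *Adgrb2* had a ratio of 2.47 and was at place 56. The remaining 9 genes were *Gm43698*, *Trim30c*, *Trnp1*, *Gria3*, *Cd8b1*, *Ccdc102a*, *Ly6c2*, *Klrd1* and *AC091309.5*. Of these, *Cd8b1* encodes the CD8β chain, *Klrd1* a natural killer cell receptor chain and *Gria3* a glutamate receptor subunit. Just outside the limit was *Fcgrt*, the neonatal Fc receptor, at 4.85.

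**Figure D2:**
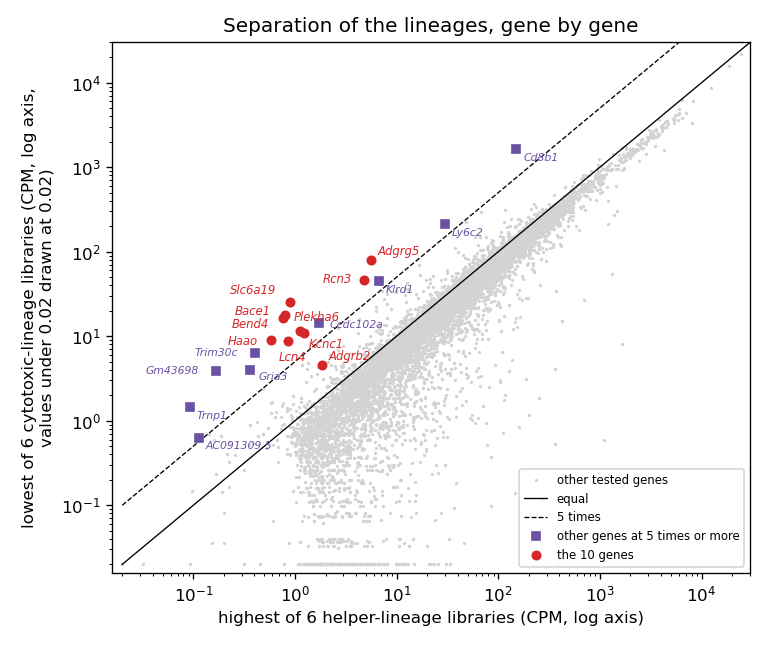
Lowest of the 6 cytotoxic-lineage libraries against highest of the 6 helper-lineage libraries in CPM (log axes) for the 11595 tested genes (grey), with the 10 genes in red and the 9 other genes at or above a ratio of 5 in purple. The solid line marks equality and the dashed line 5 times, and *Adgrb2* alone among the 10 lies below the dashed line.

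Whether the cytotoxic level was the same in both strains was asked by comparing FlipFlop CD4 with B6 CD8 T cells. The choice did not use this difference itself, but a gene had to be high in both groups to be chosen, which limits how far the groups could differ. By limma with adjustment over all tested genes, 4 of the 10 genes differed, against 7.92% of all tested genes, and none changed by more than 5-fold at an unadjusted p under 0.0001 (0.474% of all), a count that the choice of genes bears on. *Bend4* fell by 1.44 on the log2 scale (standard error 0.11, adjusted p = 3.49e-06), to 36.2% of the B6 CD8 mean, 17.2 ± 0.923 against 47.5 ± 1.80 CPM (SD, n = 3 each). *Adgrb2* rose by 1.53 (standard error 0.27, adjusted p = 0.00412), or 3.22-fold in mean CPM, from 5.21 ± 0.556 to 16.8 ± 6.21 CPM. It was the only member with a higher mean in the FlipFlop CD4 libraries than in the B6 CD8 libraries, and the other 9 had a lower one. *Lcn4* fell by 0.83 (adjusted p = 0.00629), to 55.7% of the B6 CD8 mean.

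*Rcn3* fell by 0.41 (standard error 0.10, adjusted p = 0.0278), and this call was lost when B6 CD8 replicate 1, 2 or 3 or FlipFlop CD4 replicate 2 or 3 was left out, with log2 differences from -0.44 to -0.34 and adjusted p from 0.0585 to 0.115. The other 6 genes did not pass. Their log2 differences were -0.57 in *Slc6a19* (95% interval -1.24 to 0.10), -0.52 in *Kcnc1* (-1.11 to 0.07), -0.29 in *Adgrg5* (-0.79 to 0.21), -0.20 in *Bace1* (-0.56 to 0.16), -0.20 in *Haao* (-0.60 to 0.20) and -0.08 in *Plekha6* (-0.42 to 0.26). *Adgrg5*, at an adjusted p of 0.484, passed in a fit of these 6 libraries alone (adjusted p = 0.0491). These intervals still include a fall of 1 on the log2 scale for *Slc6a19* and *Kcnc1*, but not for *Adgrg5*, *Bace1*, *Haao* or *Plekha6*. Non-overlap of the libraries, at 5 of 10 genes against 32.4% of all tested genes, added *Adgrg5* to the 4 called genes. The median of the 10 log2 differences was -0.35, and that of all tested genes was -0.00067.

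In the helper lineage, FlipFlop CD8 was compared with B6 CD4 T cells, and 3 of the 10 genes differed, near the 27.6% of all tested genes that did so. On the log2(CPM + 0.5) scale none differed by more than 5-fold at an unadjusted p under 0.0001 (0.405% of all), and here too the choice, of genes low in both groups, limits the difference. *Adgrg5* rose by 1.67 (standard error 0.23, adjusted p = 4.17e-04), from 0.770 ± 0.316 to 3.66 ± 1.68 CPM (SD, n = 3 each), 4.75-fold in mean CPM. *Adgrb2* rose by 1.44 (standard error 0.27, adjusted p = 0.00310), from 0.130 ± 0.0597 to 1.26 ± 0.530 CPM, 9.64-fold in mean CPM. Its B6 CD4 values are only 2 to 6 reads per library, and its log2 difference was 2.52 with a pseudocount of 0.1 and 0.97 with a pseudocount of 1, against 2.08 and 1.35 for *Adgrg5*. *Rcn3* fell by 0.47 (adjusted p = 0.00681), with 4.29 ± 0.423 CPM in the B6 CD4 libraries and 2.96 ± 0.351 CPM in the FlipFlop CD8 libraries. In a fit of these 6 libraries alone, only 2 of the 10 genes passed the limit on low values, since the other 8, *Adgrb2* among them, pass it only through the cytotoxic groups. Of the 2, *Adgrg5* was called and *Rcn3* was not (adjusted p = 0.0619). *Lcn4* missed the threshold (log2 difference -0.39, adjusted p = 0.0849) and passed it with a pseudocount of 0.1 or without B6 CD4 replicate 3, at adjusted p of 0.0429 and 0.0405. For the remaining genes the log2 differences were 0.49 in *Slc6a19* (95% interval -0.18 to 1.16), 0.28 in *Kcnc1* (-0.31 to 0.86), 0.17 in *Bend4* (-0.06 to 0.40), 0.10 in *Bace1* (-0.26 to 0.46), -0.01 in *Haao* (-0.40 to 0.39) and -0.28 in *Plekha6* (-0.62 to 0.06). The libraries did not overlap for 5 of 10 genes, against 43.6% of all tested genes.

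FlipFlop CD8 T cells also differed from B6 CD4 T cells in markers of T cell subsets. All 4 regulatory T cell markers, *Foxp3*, *Ikzf2*, *Il2ra* and *Ctla4*, were higher, with summed levels of 251 to 329 CPM in the B6 CD4 libraries and 709 to 864 CPM in the FlipFlop CD8 libraries. Of 6 memory or effector markers, 5 were higher, and their sum was 402 to 497 CPM in the B6 CD4 libraries and 833 to 1243 CPM in the FlipFlop CD8 libraries. In the cytotoxic lineage the memory or effector sum was 759 to 838 CPM in the B6 CD8 libraries and 438 to 485 CPM in the FlipFlop CD4 libraries, with 1 marker called lower (*Il2rb*) and 1 higher (*S100a4*), while the regulatory markers summed to 12.4 to 18.1 and 20.9 to 26.2 CPM, with *Foxp3* and *Ctla4* called higher in the FlipFlop CD4 libraries. Among naive T cell markers, *Ccr7* and *Lef1* were lower in the FlipFlop CD8 than in the B6 CD4 libraries, and *Lef1* was higher in the FlipFlop CD4 than in the B6 CD8 libraries. Of 3 tested γδ T cell markers, *Trgv2* was higher and *Trdc* lower in the helper comparison, and *Cd163l1* was lower in the cytotoxic comparison, with means of 5.70 CPM in the B6 CD8 and 0.0460 CPM in the FlipFlop CD4 libraries. In the helper comparison the cytotoxic-lineage markers *Cd8b1* (log2 difference 2.51) and *Crtam* (0.99) and the natural killer cell marker *Klrb1c* (1.51) were also higher in the FlipFlop CD8 libraries, while 3 B cell markers, 3 red blood cell markers and 1 myeloid marker were lower. Of 5 general T cell markers, *Cd3d* (-0.39), *Cd3g* (-0.36) and *Cd5* (-0.54) were also lower in the FlipFlop CD8 libraries. The helper-lineage marker *Gata3* (0.28) was higher there. No regulatory or memory marker was at 0 in all libraries of a group. The part of these markers in the differences of the 10 genes was not tested.

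**Figure D3:**
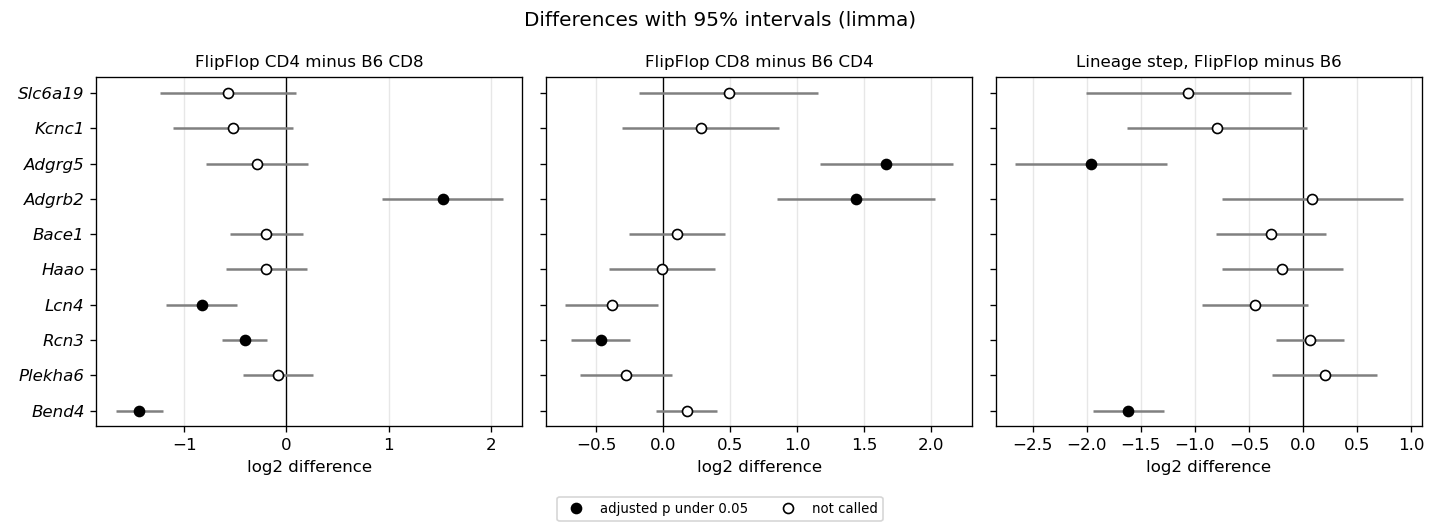
Log2 difference (points) with its 95% interval (lines) from limma for each gene, for the cytotoxic groups (FlipFlop CD4 minus B6 CD8, left), for the helper groups (FlipFlop CD8 minus B6 CD4, middle), and between the lineage difference in FlipFlop and that in B6 T cells (right), with filled points where the adjusted p was under 0.05. *Bend4* and *Adgrb2* stand farthest from 0 on the left, *Adgrg5* and *Adgrb2* in the middle, and *Adgrg5* and *Bend4* on the right.

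The size of the lineage difference itself was then compared between strains, by subtracting the B6 difference from the FlipFlop difference. It was smaller in FlipFlop T cells for 2 of the 10 genes, against 5.49% of all tested genes, and on the log2(CPM + 0.5) scale for none by more than 5-fold at an unadjusted p under 0.0001 (0.388% of all). For *Adgrg5* the change was -1.96 (standard error 0.32, adjusted p = 0.00419), and it came with the higher level in the FlipFlop CD8 libraries. For *Bend4* it was -1.61 (standard error 0.15, adjusted p = 8.70e-05), and it came with the lower level in the FlipFlop CD4 libraries. In mean CPM the difference between lineages was 140-fold in B6 and 24.1-fold in FlipFlop T cells for *Adgrg5*, and 88.6-fold and 25.6-fold for *Bend4*. *Adgrb2* was higher in both FlipFlop groups, and its lineage difference changed by 0.08 (95% interval -0.75 to 0.92), a value that depends on the pseudocount, with -0.93 at 0.1 and 0.48 at 1. In mean CPM its lineages differed by 39.9-fold in B6 and 13.3-fold in FlipFlop T cells. *Slc6a19* had a change of -1.06 with an adjusted p of 0.208, which became 0.0277 with a replicate block within each strain and 0.0445, at a change of -1.44, without FlipFlop CD4 replicate 2. The changes of the remaining 6 genes were between -0.80 (*Kcnc1*) and 0.20 (*Plekha6*) and did not pass. In the same comparison 4 of 6 memory or effector markers and 2 of 4 regulatory T cell markers passed with a negative change (limma, adjusted p under 0.05), as did 2 of 3 γδ T cell markers, *Cd8b1* (-2.56) and *Crtam* (-0.83) of 7 cytotoxic-lineage markers and *Klrb1c* (-1.67), while 2 naive markers (*Ccr7*, *Lef1*), 1 γδ T cell marker, *Cd40lg* of the helper lineage (1.87) and *Cd5* of the T cell list (0.57) passed with a positive one. *Cd40lg* was also higher in the FlipFlop CD4 than in the B6 CD8 libraries (1.40). The part of these markers was not tested.

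Relatives of the 10 genes in their families or pathways did not share the pattern as a group. Of 127 gene symbols in 9 lists, 49 were in the table and 43 were tested, of which 9 were higher and 12 were lower in the cytotoxic lineage, or 48.8% called against 39.3% of all tested genes. The median log2 difference of the 43 was 0.01, and of all tested genes 0.03. Only *Aplp1* exceeded 5-fold at an unadjusted p under 0.0001, in the direction opposite to the 10 genes. It encodes an amyloid precursor-like protein and fell by 2.37 (standard error 0.12, adjusted p = 9.59e-09), from 5.77 and 9.04 CPM in the helper groups to 0.793 and 1.24 CPM in the cytotoxic groups, B6 first. In the list of secretases and their substrates, *Psen2* (-0.97) and *Aplp2* (-0.73) also fell, a total of 4 of 11 fell and none rose, although *Bace1* itself is high in the cytotoxic lineage.

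The nearest relative in behavior was *Kcna2*, a potassium channel of another subfamily than *Kcnc1*, which rose by 2.16 (standard error 0.14, adjusted p = 1.42e-07), from 6.07 CPM in the B6 CD4 libraries and 24.3 CPM in the FlipFlop CD8 libraries to 49.4 CPM in the B6 CD8 libraries and 62.1 CPM in the FlipFlop CD4 libraries. *Kcna3*, a potassium channel well known from T cells, did not pass (0.37, adjusted p = 0.294). Of 8 tested adhesion receptors 3 rose, led by *Adgra3* and *Adgrd1* (0.48 and 0.47), and 2 fell, led by *Adgrg1* (-1.58). Of 6 PLEKHA relatives, *Plekha5* (0.42) was the highest and *Plekha8* (-1.13) and *Plekha7* (-0.90) were the lowest. In the BEN domain list *Bend5* rose (0.65) and *Nacc2* fell (-1.45). In the kynurenine pathway *Qprt*, which uses the product of the step that *Haao* begins, fell by 0.41 (adjusted p = 0.00266) and the other 3 tested genes did not pass. The CREC relatives of *Rcn3* had differences from -0.20 (*Sdf4*) to 0.19 (*Rcn1*), the single tested SLC6 relative, *Slc6a6*, had 0.01, and no lipocalin other than *Lcn4* was analysed here.

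**Figure D4:**
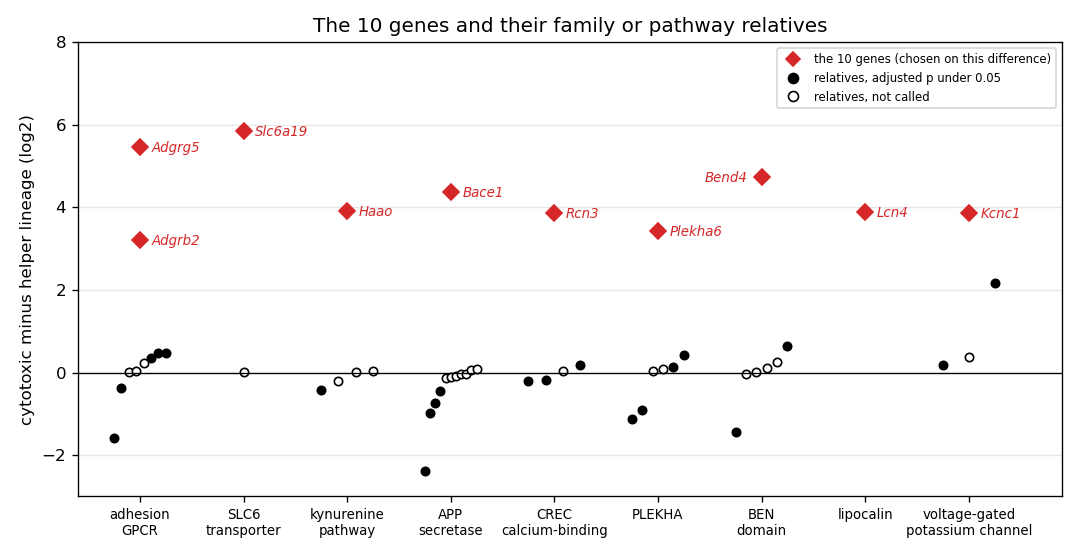
Log2 difference between the cytotoxic and the helper lineage for the 10 genes (red diamonds) and for the tested relatives in each family or pathway list (circles, filled where the adjusted p was under 0.05). The relatives lie between -2.37 (*Aplp1*) and 2.16 (*Kcna2*), and the 10 genes lie at 3.22 or more.

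The nearest tested gene on each side of each member that did not overlap it was examined next. Of the 20 neighbors, 9 were higher and 3 were lower in the cytotoxic lineage at an adjusted p under 0.05, that is 12 called, against 39.3% of all tested genes, and 3 differed by more than 5-fold, against 1.61% of all tested genes. *Ccdc102a*, 5.60 kb from *Adgrg5* and on the opposite strand, measured 15.4 ± 1.69 CPM in the B6 CD8 libraries and 15.7 ± 0.604 CPM in the FlipFlop CD4 libraries against 1.20 ± 0.482 and 1.40 ± 0.354 CPM in the helper groups, B6 first (SD, n = 3 each). *Adgrg5* was higher in the FlipFlop CD8 libraries than in the B6 CD4 libraries, and *Ccdc102a* did not pass that test (adjusted p = 0.509). On the other side of *Adgrg5*, *Adgrg1* went against the lineage and fell by 1.58.

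*Fcgrt* begins upstream of *Rcn3* on the same strand, with 0.769 kb between the genes, and measured 39.1 ± 5.48 CPM in the B6 CD8 libraries, 60.0 ± 9.27 CPM in the FlipFlop CD4 libraries, 5.85 ± 1.12 CPM in the B6 CD4 libraries and 3.82 ± 0.549 CPM in the FlipFlop CD8 libraries (SD, n = 3 each). In FlipFlop CD4 against B6 CD8 T cells it rose by 0.61 (adjusted p = 0.0330) while *Rcn3* fell by 0.41. *Gm43698*, a long intergenic RNA 25.5 kb from *Bend4*, measured 15.5 ± 2.61 CPM in the B6 CD8 libraries and 5.05 ± 1.22 CPM in the FlipFlop CD4 libraries, and at most 0.165 CPM in any helper library. Like *Bend4* it fell between these cytotoxic groups, by 1.54 (adjusted p = 1.58e-04). A further long intergenic RNA, *AC091309.5*, lies 173 kb from *Haao* and rose by 1.34, with 1.13 CPM or less as the mean of each group. Both neighbors of *Adgrb2*, of *Bace1* and of *Plekha6* failed to pass. Within 1 Mb of the 10 genes, 91 of 232 other tested genes were called, each counted once, 39.2% against the same 39.3%.

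**Figure D5:**
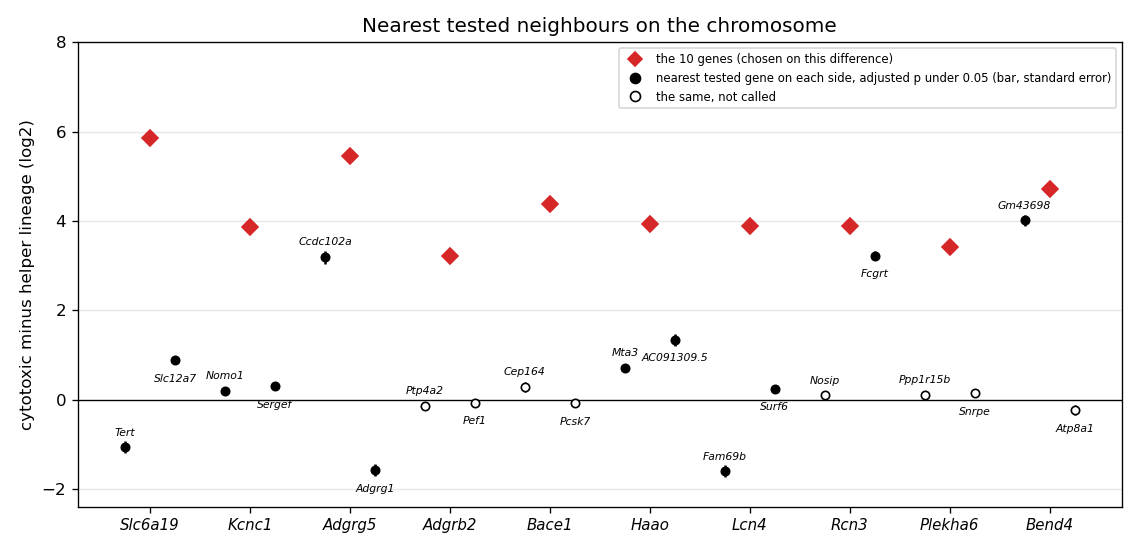
Log2 difference between the cytotoxic and the helper lineage for the 10 genes (red diamonds) and for the nearest tested gene at lower (left) and higher (right) coordinates (circles with standard error, filled where the adjusted p was under 0.05). *Ccdc102a*, *Fcgrt* and *Gm43698* lie above 3, and *Tert*, *Adgrg1* and *Fam69b* lie below -1.

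Of the 10 genes, 5 overlap other annotated genes, and reads from the shared bases may be counted to either gene, because the use of strand in counting was not given in the sources used here. *Rnf214*, with 975 shared bases the largest such overlap with *Bace1*, did not pass between lineages (log2 difference 0.13, adjusted p = 0.309). *Gm45669*, with 282 bases shared with *Rcn3*, was too low to be tested, at 1.21 and 0.772 CPM in the cytotoxic groups and 0.0210 and 0.0408 CPM in the helper groups, B6 first. No near-identical copy elsewhere in the annotated transcripts was found for any of the 10 genes.

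The genes most like the 10 over the 12 libraries, by Pearson r with the mean of their standardized log2 values, were *Ehd1* (r = 0.997), *Usp11* (0.995), *Gria3* (0.994), *Snai3* (0.992), *Slc11a2* (0.992), *Ccdc102a* (0.991), *Trim30c* (0.991), *Smap2* (0.990), *Art4* (0.990) and *Stx2* (0.989). The libraries form only 4 groups, so r mostly reflects the group means. *Ehd1*, a protein of endosomal recycling, was high in all cells, with 28.8 and 34.5 CPM in the helper groups and 140 and 123 CPM in the cytotoxic groups, B6 first. Of the 10 likest genes, *Gria3*, *Ccdc102a* and *Trim30c* were also among the genes at or above a ratio of 5.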

How the data were processed

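RNA of 12 libraries was analysed, 3 for each strain (B6 or FlipFlop) and coreceptor (CD4 or CD8). Sorted LN T cells were lysed for total RNA, and libraries were made with a low-input RNA kit and sequenced from both ends. The study's methods name STAR on mm10, and the submitters' processing notes name Trimmomatic and TopHat. The counter, the annotation and the limit on low genes are not given in the sources used here. The authors deposited 1 table of normalized signal, which holds CPM (reads of a gene relative to all reads of its library) after scaling by TMM. Genes were matched by identifier to GENCODE M21 on GRCm38 (12809 of 12809), and promoters came from RefSeq (GRCm38.p6).

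Whole reads made up only 84.8% to 86.4% of values under 100 CPM (within 0.001 read), so no count test was run. Genes reaching 1 CPM in 3 or more libraries were fitted as log2(CPM + 0.5) with limma 3.58.1 (lmFit, eBayes with trend) in R 4.3.3, 1 mean per group, no block and Benjamini-Hochberg adjustment over 11595 genes. The fit was tested on simulated data. Named are all members, per list up to 3 called relatives in each direction with the largest difference, both nearest tested neighbors, the 10 likest genes, genes with a ratio of at least 5 and fixed markers. Shared sequence was sought with blastn 2.17.0 (at least 95% identity over 100 bases). The members and lists were chosen with earlier results of these data known. Within a strain, the deviations from the group means of libraries sharing a replicate number correlated at 0.443, 0.271 and 0.513 in FlipFlop and at 0.184, 0.0887 and 0.352 in B6 mice, so the numbers pair the FlipFlop libraries by the limit of 0.1, although no source says what they share.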

Additional observations from a re-analysis of the deposited data

Results flagged for a closer look

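The difference between lineages had another size in FlipFlop than in B6 T cells for 2 of the 10 genes by the test of that difference itself (limma, adjusted p under 0.05). For *Adgrg5* the log2 difference in FlipFlop minus that in B6 T cells was -1.958, with a range of -2.373 to -1.642 over 20 other settings of the fit, and the adjusted p passed in all of them. For *Bend4* it was -1.614, with a range of -1.731 to -1.536 over 20 other settings of the fit, and the adjusted p passed in all of these as well. On the log2(CPM + 0.5) scale neither gene met the rule of more than 5-fold at an unadjusted p under 0.0001. The value of -2.373 for *Adgrg5*, which is more than 5-fold, came with a pseudocount of 0.1.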

How the results depend on the processing

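Other settings were pseudocounts of 0.1 and 1, no limit on low values, a mean of at least 5 CPM, median-of-ratios scaling, no TMM factor, fits of the compared groups alone, a replicate block, the fold rule and each library left out. The counts of 4, 3 and 2 genes for the cytotoxic groups, the helper groups and the lineage difference were unchanged with a replicate block over all libraries, and the block within strains gave 3 for the last, adding *Slc6a19*; it changed no other call. On the log2(CPM + 0.5) scale, at an unadjusted p under 0.0001 and more than 5-fold, these counts were 0, 0 and 0, and 1 relative remained of 21. The fit of the cytotoxic groups alone called 5 genes, adding *Adgrg5*, and that of the helper groups alone called 1 gene, since only 2 could be tested there. With each library left out in turn the counts were 3 to 4, 3 to 4 and 2 to 3, and 16 to 21 relatives, which were 14 at a mean of at least 5 CPM and 26 with no limit on low values. The median lineage difference of 3.90 was 4.74 with a pseudocount of 0.1 and 3.55 with a pseudocount of 1, and 3.88 to 3.99 with libraries left out.

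Signs turned only for differences that were not called. In FlipFlop CD8 against B6 CD4 T cells, *Haao* became 0.00137 with a pseudocount of 1, 0.00323 with median-of-ratios scaling and 0.0523 without the TMM factor. The lineage difference changed by -0.927 for *Adgrb2* with a pseudocount of 0.1 and by -0.0262 for *Rcn3* without the TMM factor. With libraries left out in turn the ranges were -0.244 to 0.0170 for *Plekha6* in the cytotoxic groups, -0.0665 to 0.265 for *Bace1* and -0.215 to 0.127 for *Haao* in the helper groups, and for the lineage difference -0.108 to 0.431 for *Adgrb2*, -0.327 to 0.0147 for *Haao* and -0.0241 to 0.132 for *Rcn3*. The cause was not tested. Values of under 1 CPM in the helper lineage rest on 2 to 29 reads per library, which limits their folds.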
